A study of Mus musculus with 6 samples.

Results

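Immunoglobulin genes were read in RNA-seq libraries of mouse pancreatic islets. They were taken by name from a table of 55060 genes, as every row named for a heavy chain, kappa or lambda variable (V), joining (J) or constant gene, and the heavy chain diversity (D) rows that the same pattern takes in, with a mean of at least 0.1 FPKM (fragments scaled by gene length and library size) over the 6 samples. Of 395 rows with such a name, 208 were above 0 in at least 1 sample and 187 reached the mean level. The 187 rows held 160 V genes, 11 constant genes, 12 J genes and 3 D genes. The remaining row, Ighmbp2, is a helicase gene caught by its name, was between 2.38 and 3.33 FPKM in the 6 samples, and was left out of every count and sum below, which leaves 186 genes. The mean level over all 6 samples chose the genes, so their presence in the islets was not a finding. The lowest genes inside the limit were Igkv8-26 at a mean of 0.129 FPKM, Ighv10-3 at 0.110 and Ighv1-54 at 0.101, and the highest outside it were Igkv2-107 at 0.0916, Igkv12-98 at 0.0828 and Igkv11-125 at 0.0808.

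The study compared 3 Ctrl with 3 cKO islet samples taken at 12 weeks of age. The cKO mice were Ins2-cre; Parn f/f, in which Cre driven by the Ins2 promoter removes exon 7 of Parn, a gene for a poly(A)-specific ribonuclease, in the insulin-producing β cells. The Ctrl mice carried Parn f/f without this deletion or were other littermates, and the floxed line was made in C57BL/6 zygotes. Islets were picked by hand after collagenase P digestion, so any blood, lymphoid or exocrine tissue attached to them was sequenced with them. Neither the number of animals behind a sample nor the genotype of each Ctrl animal was given, and the p-values below measure the spread between these 6 samples only.

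Antibodies are made of heavy and light chains, each with a variable and a constant part. In each B cell, recombination joins a V gene to a J gene, with a D gene between them in the heavy chain, so that a clone of B cells and the plasma cells that descend from it carry the same V genes. The heavy chain constant gene sets the class: Ighm and Ighd encode IgM and IgD of B cells that have not switched, Igha encodes IgA, the antibody of mucosal surfaces, and the Ighg genes encode IgG. Plasma cells hold very large amounts of immunoglobulin mRNA, so a small number of them can be seen in a bulk library. In such a library a V gene that takes a large share of the V reads can stand for a large clone, for a few cells with much mRNA, or for several clones that use the same V gene, and these cannot be told apart. Fewer cells of a type and less RNA per cell cannot be told apart either.

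The germline ends of the V genes that led each sample are given here to identify these genes, while the values below are those of whole genes. Each line holds the last 60 bases of the germline V transcript in GENCODE M21 (build GRCm38, where all 186 genes stood at the coordinates of the table), read 5′ to 3′ on the coding strand, and the capitals mark the codon of the conserved cysteine, found by the letters around it. Recombination trims and extends the gene after this codon, and the table holds no reads, so the rearranged sequences were not analysed here. The heavy chain V genes (IGHV, chromosome 12) that led Ctrl replicates 1, 2 and 3 and cKO replicates 1, 2 and 3 were, in this order:
Ighv1-81, chr12:115920279-115920338, minus strand: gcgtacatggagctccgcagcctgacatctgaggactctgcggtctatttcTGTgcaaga
Ighv1-84, chr12:115980702-115980761, minus strand: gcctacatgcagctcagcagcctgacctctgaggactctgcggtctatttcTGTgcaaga
Ighv1-11, chr12:114612243-114612302, minus strand: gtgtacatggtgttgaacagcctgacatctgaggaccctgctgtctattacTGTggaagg
Ighv9-2, chr12:114109001-114109060, minus strand: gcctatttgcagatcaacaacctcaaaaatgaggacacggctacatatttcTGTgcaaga
Ighv3-6, chr12:114288157-114288216, minus strand: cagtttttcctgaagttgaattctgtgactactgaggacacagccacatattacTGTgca
Ighv1-14, chr12:114646572-114646631, minus strand: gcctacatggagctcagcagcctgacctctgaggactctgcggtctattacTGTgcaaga
The kappa V genes (IGKV, chromosome 6) were Igkv1-117 in Ctrl replicates 1 and 2, then Igkv8-16, Igkv15-103 and Igkv12-44, and Igkv6-15 and Igkv8-27 with the same number of reads in cKO replicate 3:
Igkv1-117, chr6:68121768-68121827, plus strand: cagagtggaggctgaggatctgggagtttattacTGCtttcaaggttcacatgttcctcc
Igkv8-16, chr6:70386672-70386731, minus strand: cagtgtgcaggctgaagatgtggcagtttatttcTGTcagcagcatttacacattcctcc
Igkv15-103, chr6:68437866-68437925, plus strand: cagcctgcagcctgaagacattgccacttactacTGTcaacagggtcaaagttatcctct
Igkv12-44, chr6:69814631-69814690, minus strand: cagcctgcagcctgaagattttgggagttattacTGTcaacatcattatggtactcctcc
Igkv6-15, chr6:70406469-70406528, minus strand: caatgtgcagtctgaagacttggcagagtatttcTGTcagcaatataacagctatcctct
Igkv8-27, chr6:70171809-70171868, minus strand: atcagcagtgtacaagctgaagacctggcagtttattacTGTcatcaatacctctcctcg
Against every other V row of its locus, Ighv1-11 was most like Ighv1-62-1 (87.8% of bases identical over the shorter transcript) and Igkv8-16 was most like Igkv8-19 (81.6%). For Ighv1-84 the nearest copy was Ighv1-75 at 96.3% and for Ighv1-81 it was Ighv1-62-1 at 96.7%. For Igkv1-117 it was Igkv1-110 at 97.5%. Of the 160 V members, 87 had a copy at 95% or more, so for these the split of reads between copies is uncertain. The highest identity, 99.2%, was that of Ighv1-72 to Ighv1-62-3, and no pair was identical.

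Library sizes implied by the FPKM ran from 15731223 to 18085944, and 1 read on a gene of 1 kb was worth 0.0553 to 0.0636 FPKM. These sizes are scaled and are not read totals. Reads on genes numbered 16289408 to 17944775 and exceeded the implied size in every Ctrl sample. Parn was at 7.45 ± 0.854 FPKM in Ctrl and 5.24 ± 0.809 in cKO (SD, n = 3 each), without overlap of the groups and with an adjusted p of 0.545 (limma). Ctrl replicate 1 stood apart in genes of other cells. All 15 genes of a B cell list were highest there, with a summed level of 123 FPKM against 8.69 to 14.1 in the other 5 samples. Of its defining genes, Ms4a1, the gene for CD20, was at 10.4 FPKM there and at most 0.286 FPKM elsewhere. All 8 genes of a germinal centre and class switch list were also highest there, with a sum of 25.7 FPKM against 3.05 to 4.75. Both lists were chosen with earlier results of these data known, so the counts are a description and not independent support. Results that rest on Ctrl replicate 1 are given with and without it.

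**Figure D1:**
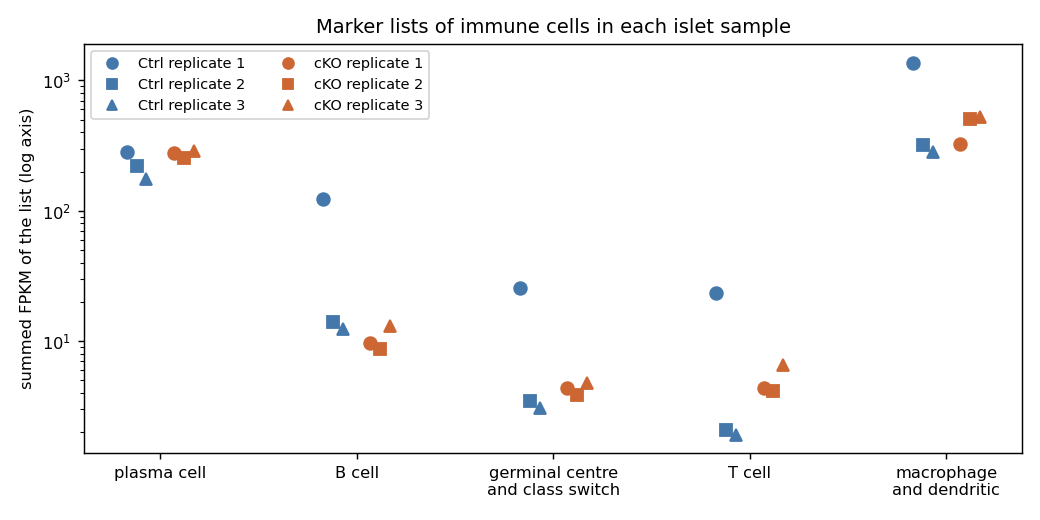
Summed FPKM (log axis) of 5 lists of immune cell genes in each sample, with Ctrl in blue, cKO in orange and a symbol for each replicate. Ctrl replicate 1 lies above the other 5 samples for the B cell list (123 against 8.69 to 14.1 FPKM) and for the germinal centre, T cell and macrophage lists, while for the plasma cell list it lies within their range.

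In a list of 14 plasma cell genes, 7 were highest in Ctrl replicate 1, and the sum of the list was not. Among the 7 were Pou2af1 (15.0 FPKM there, at most 0.889 elsewhere), Mzb1 (14.4 and at most 2.93), Tnfrsf13b (2.36 and at most 0.663) and Irf4 (0.982 and at most 0.244). The sum was 284, 219 and 175 FPKM in Ctrl replicates 1 to 3 and 277, 254 and 285 FPKM in the cKO replicates. Secretory genes that islet and acinar cells also use, such as Xbp1 at 85.6 to 136 FPKM, made up much of this sum. Jchain, which links IgA and IgM into polymers, is a more particular marker. It was at 18.9, 11.0 and 7.50 FPKM in Ctrl and 10.1, 25.1 and 19.5 FPKM in cKO, and the groups overlapped. Tnfrsf17, the receptor BCMA of plasma cells, was listed at 0 in Ctrl replicate 2 and cKO replicate 1 and was at 0.282 FPKM or less in the others. The secretory genes Derl3 (8.87 ± 1.81 FPKM in Ctrl, 15.5 ± 3.41 in cKO) and Txndc5 (36.2 ± 6.06 and 45.9 ± 1.97, SD, n = 3 each), were higher in cKO without overlap, with adjusted p of 0.481 and 0.630 (limma).

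Reads on the 186 immunoglobulin genes numbered 10258, 2271 and 3951 in Ctrl replicates 1 to 3 and 5362, 7671 and 8945 in the cKO replicates. This was 0.0138% to 0.0586% of the reads on genes. Ctrl replicate 1 was the highest and Ctrl replicate 2 the lowest of the 6, so the Ctrl samples enclosed the cKO samples. A read was found on 146, 52 and 69 of the 186 genes in Ctrl and on 87, 117 and 115 in cKO. The number of genes seen was highest where the reads were most numerous and lowest where they were fewest.

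The constant genes gave the class of the antibody mRNA. Heavy constant genes summed to 131, 22.6 and 48.2 FPKM in Ctrl and 65.9, 71.1 and 91.9 FPKM in cKO. The mean was 67.1 ± 56.4 in Ctrl and 76.3 ± 13.7 in cKO (SD, n = 3 each), and without Ctrl replicate 1 the Ctrl mean was 35.4. The kappa constant gene Igkc (chromosome 6) was the highest immunoglobulin gene in every sample, at 283, 70.4 and 127 FPKM in Ctrl and 124, 229.5 and 231 FPKM in cKO. The groups overlapped, with a log2 difference (cKO minus Ctrl, on log2(FPKM + 1)) of 0.46 (SE 0.52, adjusted p = 0.872, limma).

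Igha was the leading heavy constant gene in 5 of 6 samples. It was at 37.8, 16.8 and 12.8 FPKM in Ctrl and 31.6, 59.5 and 63.3 FPKM in cKO. Only Ctrl replicate 1 reached into the cKO range. The log2 difference was 1.25 (SE 0.43), with an unadjusted p of 0.0261 and an adjusted p of 0.597 (limma), so the difference did not pass the test over all genes. Without Ctrl replicate 1 it was 1.68 with an adjusted p of 0.228. The unadjusted p passed 0.05 in none of the fits that left out Ctrl replicate 2 (0.0913), Ctrl replicate 3 (0.0970), cKO replicate 2 (0.0881) or cKO replicate 3 (0.0923). As a share of heavy constant FPKM, Igha took 28.9%, 74.4% and 26.5% in Ctrl and 48.0%, 83.7% and 68.9% in cKO. The spread within Ctrl was thus wider than the gap between the group means of 43.3% ± 27.0 and 66.9% ± 18.0. Of heavy constant reads, Igha took 36.2%, 82.1% and 32.4% in Ctrl and 59.9%, 86.8% and 73.5% in cKO.

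**Figure D2:**
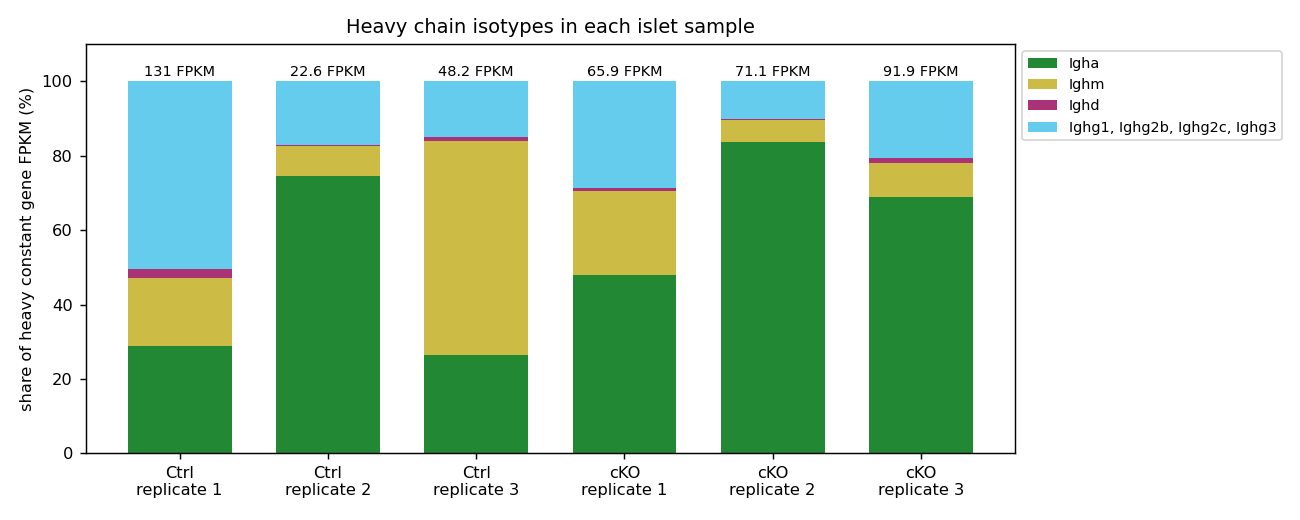
Share of the summed heavy constant gene FPKM taken by each isotype (bars, in %) in each of the 6 samples, with the sum above each bar. Igha is the largest part in Ctrl replicate 2 and in the 3 cKO samples, Ighm in Ctrl replicate 3 (57.3%), and the 4 Ighg genes together in Ctrl replicate 1 (50.3%).

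Ighm, the gene of IgM, set Ctrl replicate 3 apart. It was at 23.8, 1.82 and 27.6 FPKM in Ctrl and 14.8, 4.21 and 8.36 FPKM in cKO. In Ctrl replicate 3 it took 57.3% of heavy constant FPKM, or 867 of 1748 heavy constant reads (49.6%, Wilson 95% interval 47.3% to 51.9%, counting error only). In the other samples its FPKM share lay between 5.92% and 22.4%. Ighd, which unswitched B cells make together with Ighm, was low throughout, at 3.29, 0.10 and 0.569 FPKM in Ctrl and 0.599, 0.242 and 1.25 FPKM in cKO. It amounted to 2.06% of Ighm FPKM in Ctrl replicate 3, the lowest of the 6 samples, and to 15.0% in cKO replicate 3, the highest. Neither gene passed the test between genotypes (adjusted p = 0.934 for Ighm and 0.938 for Ighd, limma).

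By FPKM, Ighg2c was the highest IgG gene in Ctrl replicates 1 and 2 and cKO replicate 1, Ighg1 in cKO replicates 2 and 3, and Ighg3 in Ctrl replicate 3. By reads, Ighg2b exceeded Ighg2c in Ctrl replicate 1 (1095 against 833), on a gene length of 2678 against 1326 bases. Ighg2c, the form that C57BL/6 mice carry in place of Ighg2a, was at 36.0, 3.07 and 0.589 FPKM in Ctrl and 17.1, 2.30 and 5.34 FPKM in cKO. Ighg2b was at 23.4 FPKM in Ctrl replicate 1 and between 0.783 and 5.93 FPKM elsewhere. Ighg1 was listed at 0 in Ctrl replicate 2 and cKO replicate 1, and was highest in cKO replicate 3 at 7.66 FPKM. Ighg3 was at 1.98, 0 and 3.64 FPKM in Ctrl and 0, 0.206 and 0.0220 FPKM in cKO. With 152 reads in Ctrl replicate 3, 87 in Ctrl replicate 1 and 10 in all cKO samples together, it had the largest negative log2 difference of the constant genes (-1.16, SE 0.53, adjusted p = 0.693, limma), yet Ctrl replicate 2 lay at 0 like cKO replicate 1. Together the 4 Ighg genes took 50.3% of heavy constant FPKM in Ctrl replicate 1 and 10.1% to 28.7% in the others. Of heavy constant reads they took 45.5% in Ctrl replicate 1 and 8.59% to 19.5% in the others. Ighe, the gene of IgE, is not taken in by the naming rule and had 9 reads in Ctrl replicate 1, 4 in cKO replicate 2 and 0 in the rest.

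Lambda light chains were the minor class, as is known for mice. The 3 lambda constant genes (chromosome 16) summed to 34.0, 4.12 and 3.86 FPKM in Ctrl and 6.31, 12.7 and 6.85 FPKM in cKO. This was 2.88% to 10.7% of light chain constant FPKM, with the highest share in Ctrl replicate 1. Iglc2 was the highest of the 3 in every sample but cKO replicate 2, at 16.0, 3.84 and 1.87 FPKM in Ctrl and 2.79, 2.91 and 3.79 FPKM in cKO. Iglc1 was at 9.5 FPKM in cKO replicate 2 and 9.85 FPKM in Ctrl replicate 1, and at 1.76 FPKM or less in the other 4 samples. Iglc3 was highest in Ctrl replicate 1 at 8.12 FPKM and listed at 0 in Ctrl replicate 2. Iglc1, Iglc3 and the lambda V gene Iglv1 overlap a gene on the opposite strand, and the strand setting of the counting was not given. None of the 11 constant genes passed an adjusted p of 0.05, and their median log2 difference was -0.24, beside -0.01 over all 21211 genes tested.

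**Figure D3:**
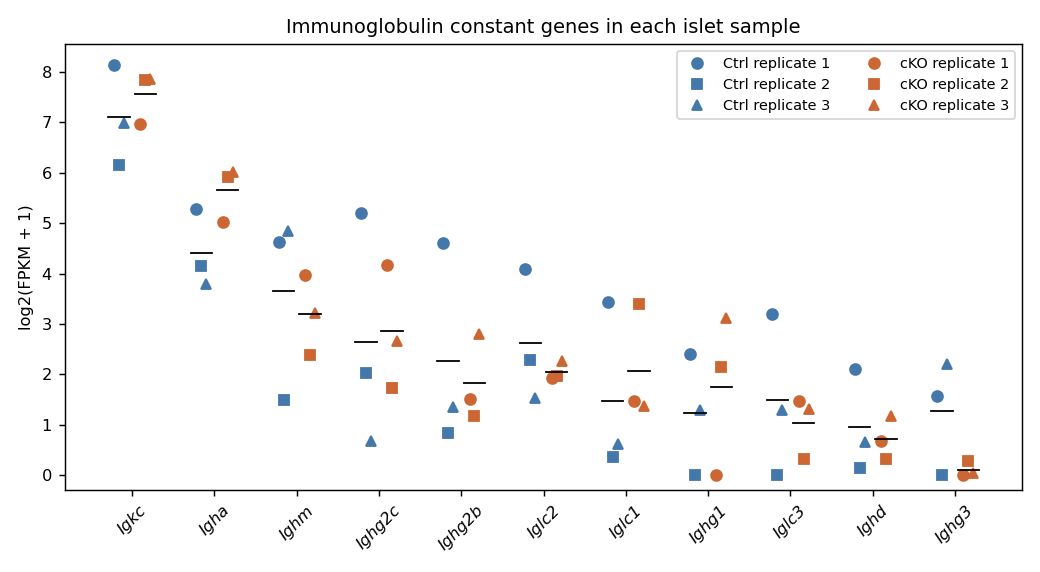
log2(FPKM + 1) of the 11 constant genes in each sample, with Ctrl in blue, cKO in orange, a symbol for each replicate and a black line at the mean of each genotype. The groups overlap for every gene, and Ctrl replicate 1 is the highest sample for 7 of them.

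A single V gene took a large share of the heavy chain V reads in some samples and not in others. In Ctrl replicate 3, Ighv1-11 took 135 of 414 IGHV reads, or 32.6% (Wilson 95% interval 28.3% to 37.3%). It was at 23.1 FPKM there and at 0 in the other 5 samples, where a count of 0 allows up to 3 reads. The 3 leading IGHV genes held 52.2% of the IGHV reads of that sample. In Ctrl replicate 2, Ighv1-84 took 50 of 232 reads, or 21.6% (16.7% to 27.3%). In cKO replicate 1, Ighv9-2 took 100 of 680 reads, or 14.7% (12.2% to 17.6%). Apart from 1 read in Ctrl replicate 1, no other sample held a read of Ighv9-2. In cKO replicate 2, Ighv3-6 took 12.1% (9.88% to 14.7%), and this gene was present in every sample, at 2.95, 4.54 and 2.92 FPKM in Ctrl and 5.37, 14.0 and 4.74 FPKM in cKO. In Ctrl replicate 1 the leading gene, Ighv1-81, took 8.58% (6.88% to 10.7%), and in cKO replicate 3 the leading gene, Ighv1-14, took 6.56% (5.10% to 8.40%).

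The inverse Simpson number, which is the number of equally used V genes that would give the same evenness, followed the same order. It was 21.8, 9.54 and 6.96 for IGHV in Ctrl replicates 1 to 3 and 15.5, 20.1 and 26.6 in the cKO replicates. Since the samples differ in reads, the number of V genes expected at 232 IGHV reads, the total of the lowest sample, was computed from the counts. It was 40.4, 18.0 and 23.4 in Ctrl and 29.6, 32.1 and 40.1 in cKO. At equal reads, Ctrl replicates 2 and 3 thus held the fewest IGHV genes, and Ctrl replicate 1 as many as cKO replicate 3. The mean share of the leading IGHV gene was 20.9% ± 12.03 in Ctrl and 11.1% ± 4.16 in cKO (SD, n = 3 each), and the groups overlapped because Ctrl replicate 1 lay among the cKO samples.

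The kappa V genes gave the same order of samples at the concentrated end. In Ctrl replicate 3, Igkv8-16 took 133 of 613 IGKV reads, or 21.7% (18.6% to 25.1%), at 21.1 FPKM. Like Ighv1-11, it was at 0 in all other samples. Igkv14-126 followed with 107 reads (17.5%), and the 3 leading genes together held 48.6%. In Ctrl replicate 2, Igkv1-117 took 16.3% (13.4% to 19.8%). The same gene led Ctrl replicate 1 at 9.67% (8.27% to 11.3%) and was found in all 6 samples, at 20.4, 13.1 and 4.61 FPKM in Ctrl and 1.83, 6.12 and 10.7 FPKM in cKO. In cKO replicate 1, Igkv15-103 took 11.9% (9.95% to 14.1%). It had 40 reads in Ctrl replicate 1, 29 in cKO replicate 2 and 0 in the other 3 samples. In cKO replicate 2, Igkv12-44 took 7.82% (6.55% to 9.30%), and in cKO replicate 3, Igkv6-15 and Igkv8-27 had 91 reads each, or 5.84% (4.78% to 7.12%). The inverse Simpson number was 30.5, 14.1 and 9.19 in Ctrl and 17.4, 32.2 and 27.6 in cKO. At 508 IGKV reads the expected number of V genes was 60.2, 23.0 and 26.3 in Ctrl and 35.1, 57.0 and 43.7 in cKO.

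**Figure D4:**
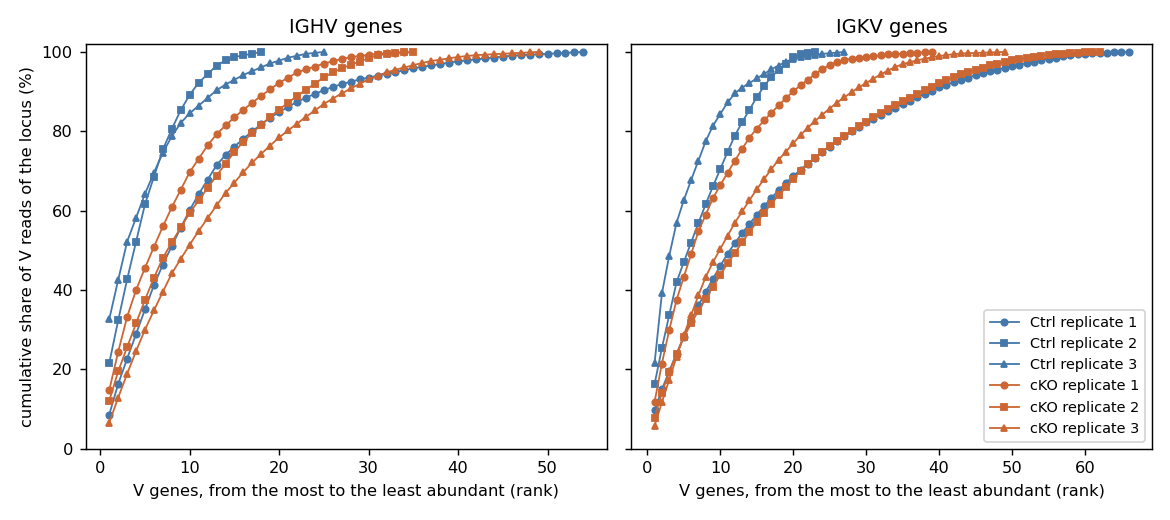
Cumulative share of the V reads of a locus (%) against the rank of the V genes, from the most to the least abundant, for IGHV (left) and IGKV (right), with Ctrl in blue and cKO in orange. The curves of Ctrl replicates 2 and 3 climb fastest (3 IGHV genes hold 52.2% of the reads in Ctrl replicate 3), and Ctrl replicate 1 runs among the cKO samples.

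**Figure D5:**
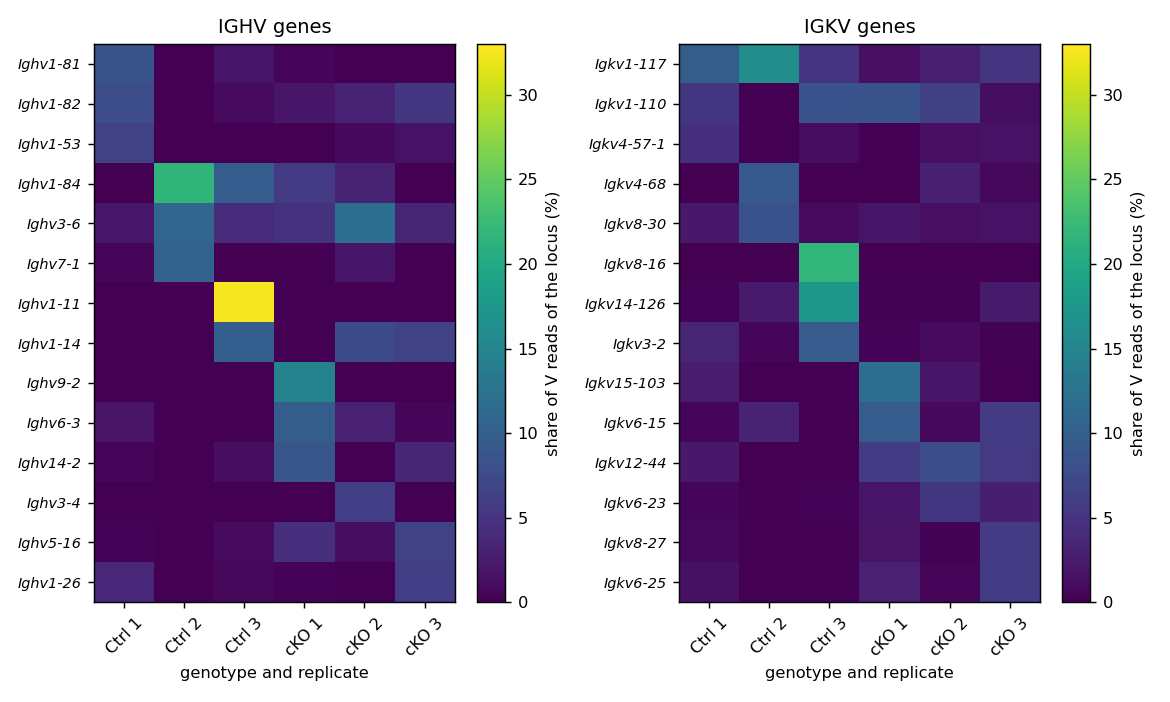
Share of the V reads of a locus (colour, in %) taken in each sample by every V gene that was among the 3 leading genes of any sample. Ighv1-11 (32.6%) and Igkv8-16 (21.7%) are bright in Ctrl replicate 3 alone, while Ighv3-6 and Igkv1-117 are above 0 in all 6 columns.

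The 3 lambda V genes had few reads, 17 to 76 a sample. Iglv1 led 5 samples with 72.7% to 98.7% of IGLV reads. It was at 5.86, 1.95 and 2.46 FPKM in Ctrl and 6.99, 11.0 and 7.49 FPKM in cKO, so every cKO sample lay above every Ctrl sample (log2 difference 1.18, SE 0.34, adjusted p = 0.524, limma). Ctrl replicate 2 was led by Iglv3 with 31 of 43 reads (72.1%, 57.3% to 83.3%). Iglv2 had 8 reads in Ctrl replicate 1, 10 in cKO replicate 1 and 0 in the others.

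Most V genes were concentrated in few samples. At 10 reads or more, 52 of the 160 V members were present in 1 sample, 34 in 2, 27 in 3, 12 in 4, 5 in 5 and 4 in all 6, while 26 did not reach 10 reads in any. The 4 in all samples were Ighv3-6, Igkv1-117, Igkv14-111 and Iglv1. These counts depend in part on the V reads of each sample, which ran from 232 to 869 for IGHV and from 508 to 1557 for IGKV. Igkv14-111 was the most even of the 5 highest IGKV genes, at 7.79, 3.63 and 4.90 FPKM in Ctrl and 6.03, 8.13 and 7.66 FPKM in cKO. For 114 of 160 V members (71.3%) at least 50% of all reads came from 1 sample, and for 42 it was at least 90%. Among the 8510 other genes tested with read totals in the same range, 15.3% had at least 50% in 1 sample. Only the lowest and highest totals were matched and not their distribution, so the 2 shares are not compared at equal reads. The 5 highest IGHV genes by mean FPKM were Ighv3-6, Ighv1-84, Ighv1-11, Ighv1-82 and Ighv1-14. Ighv1-84 had 50 reads in Ctrl replicate 2, 40 in Ctrl replicate 3, 38 in cKO replicate 1 and 22 in cKO replicate 2, and 0 in Ctrl replicate 1 and cKO replicate 3. Ighv1-82 was highest in Ctrl replicate 1 at 9.80 FPKM and listed at 0 in Ctrl replicate 2. Igkv1-110, the second IGKV gene by mean level, was at 11.3, 0 and 7.64 FPKM in Ctrl and 11.1, 13.2 and 2.76 FPKM in cKO. A gene seen in 5 samples could thus be listed at 0 in the sixth. Its nearest copy, at 97.5%, is Igkv1-117, which led Ctrl replicate 2, so the split of reads between these genes is uncertain.

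Ighv1-14 is annotated as a V pseudogene in the table, 1 of 5 among the members against 130 of the 348 V rows. It was at 0 in Ctrl replicates 1 and 2 and cKO replicate 1, and had 41 reads in Ctrl replicate 3, 52 in cKO replicate 2 and 57 in cKO replicate 3 (6.13, 7.44 and 7.84 FPKM). The last 60 bases of its germline transcript, shown above, hold the cysteine codon. Its nearest copy, Ighv1-83, was identical at 90.3% of bases. The other 4 pseudogenes had 11 reads at most in any sample.

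The shares of V gene families differed between the samples. The Ighv1 family, the largest in the mouse with 40 of the 81 IGHV members, took 69.4%, 40.9% and 73.7% of IGHV reads in Ctrl and 35.9%, 26.6% and 51.3% in cKO. The Ighv3 family took 24.3% in cKO replicate 2 and 2.1% to 11.0% elsewhere. The Ighv11 family, with 2 members, took 7.0% in Ctrl replicate 3 and 0.3% at most elsewhere. The kappa locus holds V genes in both orientations. Those on the plus strand took 56.1%, 58.5% and 63.8% of IGKV reads in Ctrl and 47.3%, 43.2% and 34.9% in cKO, so each Ctrl sample lay above each cKO sample in this share, which was computed after the values of the genes had been seen and has no test.

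V genes of a kind known from B-1 cells, a lineage of body cavities that makes much natural IgM, were looked up after the values had been seen. Antibodies to phosphatidylcholine are known to pair Ighv11-2 with Igkv14-126, or Ighv12-3 with Igkv4-91, and their germline ends are shown here for that reason:
Ighv11-2, chr12:114048241-114048300, minus strand: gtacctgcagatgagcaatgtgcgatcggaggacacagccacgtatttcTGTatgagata
Igkv14-126, chr6:67896583-67896642, plus strand: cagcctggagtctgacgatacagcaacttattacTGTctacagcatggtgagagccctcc
Ighv12-3, chr12:114366521-114366580, minus strand: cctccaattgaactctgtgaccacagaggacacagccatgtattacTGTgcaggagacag
Igkv4-91, chr6:68768555-68768614, minus strand: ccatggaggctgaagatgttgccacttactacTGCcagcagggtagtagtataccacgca
Ighv11-2 had 21 reads in Ctrl replicate 3, the sample led by Ighm, 2 in Ctrl replicate 1, 1 in cKO replicate 3 and 0 elsewhere. Igkv14-126 had 107 reads in Ctrl replicate 3, 37 in cKO replicate 3 and 12 or fewer in the other 4. Ighv12-3 had 26 reads in cKO replicate 2 and 10 in cKO replicate 3, with 0 elsewhere. Igkv4-91 had 33 reads in cKO replicate 2, 2 in Ctrl replicate 1 and 0 elsewhere. The 2 genes of each set thus had their highest count in the same sample. How often other heavy and light chain V genes share their highest sample was not counted, and no test was made. Ighv11-2 is 98.9% identical to Ighv11-1, which had 8 reads in Ctrl replicate 3. Bulk values cannot tell which heavy and light chains were in the same cell.

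The D and J genes, which are short, rested on very few reads. All 15 together had 63 reads in Ctrl replicate 1 and 1 to 11 reads in the other samples. Ighd4-1, a D gene of 11 bases (chr12:113430528-113430538, minus strand), shows why their FPKM should be read with care, and its whole germline sequence is
Ighd4-1, chr12:113430528-113430538, minus strand: ctaactgggac
Its 4 reads in Ctrl replicate 1 gave 20.8 FPKM and its 2 reads in Ctrl replicate 3 gave 10.9 FPKM, with 0 in the other 4 samples. Ighd1-1 had 3 reads, in Ctrl replicate 1, and Ighd3-1 had 1 read, in cKO replicate 2. Of the J genes, Igkj5 had 15 reads in Ctrl replicate 1 and 0 to 2 elsewhere, and Ighj4 had 13 in Ctrl replicate 1 and 0 to 4 elsewhere. Igkj4, Igkj3, Igkj2 and Ighj3 had 4 to 7 reads in Ctrl replicate 1 and 4 at most in any other sample. Ighj1, Ighj2, Igkj1, Iglj1, Iglj3 and Iglj3p had 3 reads at most in any sample. The 5 kappa J genes and Igkc overlap another annotated gene, Gm30211, on the same strand.

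Between the genotypes no immunoglobulin gene passed the test over all genes. Of the 186 genes, 0 were below an adjusted p of 0.05 (limma, smallest 0.274), as were 0 of the 21211 genes tested (0%), and voom on the reads called 0 immunoglobulin genes and 2 of all genes. The study used DESeq2 and reported genes up and down in cKO islets, so the counts given here belong to the tests used here. At an unadjusted p under 0.05, 15 of 186 were higher in cKO and 3 lower, or 8.06% and 1.61%, where over all genes tested 4.33% were higher and 3.07% lower. When FPKM were scaled by total reads on genes, the counts over all genes went from 919 higher and 651 lower to 1404 and 377, and those of the immunoglobulin genes to 16 and 3. Without Ctrl replicate 1, 19 were higher and 0 lower. Without Ctrl replicate 2, 8 were higher and 8 lower, and without Ctrl replicate 3, 8 and 4. The counts over all genes also moved when a sample was left out, with the most lower without Ctrl replicate 1. Their ranges are given with the processing below, so these counts of immunoglobulin genes are not read against a background here. The groups did not overlap for 11 genes higher and 1 lower in cKO, or 5.91% and 0.538% of 186, where the background over all genes was 7.11% and 6.03%. The median log2 difference of the 186 genes was 0.27 beside -0.01 for all genes, and it was 0.19 when the 28 genes at 0 in all Ctrl samples and the 23 at 0 in all cKO samples were set at a floor of 3 reads over the group. Leaving out 1 sample moved the median, without the floor, to 0.46 without Ctrl replicate 1 and 0.12 without Ctrl replicate 2 or 3. It was 0.28 without cKO replicate 1, 0.00 without cKO replicate 2 and 0.03 without cKO replicate 3.

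The 6 largest positive differences at an unadjusted p under 0.05 were all V genes. Igkv12-44 was at 4.72, 0 and 0 FPKM in Ctrl and 7.52, 16.5 and 11.7 FPKM in cKO (log2 difference 2.79, SE 0.70, adjusted p = 0.471, limma). Igkv6-23 was at 1.09, 0 and 0.326 FPKM in Ctrl and 2.62, 12.3 and 6.44 FPKM in cKO. For both, every cKO sample lay above every Ctrl sample. Igkv6-15 was at 1.16, 2.93 and 0 FPKM in Ctrl and 14.6, 1.99 and 14.5 FPKM in cKO, where cKO replicate 2 fell within the Ctrl range. Ighv7-3 was at 0, 0.880 and 0 FPKM in Ctrl and 1.89, 6.69 and 6.13 FPKM in cKO, and Ighv5-16 was at 0.452, 0 and 0.633 FPKM in Ctrl and 4.49, 1.36 and 8.0 FPKM in cKO, both without overlap. Igkv5-48 was at 4.14, 0 and 0 FPKM in Ctrl and 3.32, 6.23 and 7.99 FPKM in cKO, and overlapped through Ctrl replicate 1. The smallest adjusted p, 0.274, belonged to Igkv4-74 (1, 0 and 0 reads in Ctrl, 14, 24 and 21 in cKO) and Ighv14-3 (2, 0 and 0 reads in Ctrl, 11, 18 and 28 in cKO), which are named here because they had it. Of 18 genes called at an unadjusted p under 0.05, 11 kept the call without Ctrl replicate 1 and 8 kept it without Ctrl replicate 3 or without cKO replicate 3.

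In the other direction, Igkv3-10 was at 4.87, 1.39 and 1.15 FPKM in Ctrl and 0.312, 1.10 and 0 FPKM in cKO, and was the only gene lower without overlap (log2 difference -1.15, SE 0.45, adjusted p = 0.651, limma). Ighv1-50 had 11, 0 and 10 reads in Ctrl and was at 0 in all cKO samples. Ighd4-1, described above with its 4 and 2 reads, was the last of the 3. No fold is given for genes at 0 in a whole group.

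Cd79a, the signalling partner of the antibody on the B cell surface, was the gene of the B cell list with an unadjusted p under 0.05. It was at 29.6, 12.5 and 9.28 FPKM in Ctrl and 5.43, 6.24 and 6.91 FPKM in cKO, without overlap (log2 difference -1.18, SE 0.38, adjusted p = 0.572, limma). Its partner Cd79b was at 27.4, 0.267 and 0.714 FPKM in Ctrl and 1.07, 0.402 and 1.39 FPKM in cKO. Outside Ctrl replicate 1, Cd79a was therefore at 5.43 to 12.5 FPKM where Cd79b was at 0.267 to 1.39 FPKM, and no sample but Ctrl replicate 1 had the pair at like levels. The B cell list had 0 genes higher and 1 lower of 15 at an unadjusted p under 0.05, with sums of 12.4 to 123 FPKM in Ctrl and 8.69 to 13.1 FPKM in cKO. In Ctrl replicates 2 and 3, Bank1 or Fcrla was listed at 0. The germinal centre list had 0 of 8 in either direction, with sums of 3.05 to 25.7 FPKM in Ctrl and 3.87 to 4.75 FPKM in cKO. The plasma cell list had 2 of 14 higher and 0 lower. Over all genes tested, 4.33% were higher and 3.07% lower by the same rule. The part of these cells in the immunoglobulin values was not tested.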

How the data were processed

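RNA of 3 Ctrl and 3 cKO islet samples was extracted with TRIzol and made into libraries with a SMARTER mRNA kit. The authors deposited 1 table of FPKM per gene and sample on build GRCm38 (mm10, per the labels). The aligner, counter and strand setting are not given in the sources used here. FPKM times gene length came in whole steps for 100% of the values checked (up to 2000 reads, tolerance 0.05), which gave back reads per gene. Median-of-ratios factors computed on the FPKM were equal in all samples (1.00), so the deposited FPKM already stood on that scale.

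log2(FPKM + 1) values of the 21211 genes that averaged 0.1 FPKM or more were fitted with limma 3.58.1 (R 4.3.3), with genotype only, an empirical Bayes trend and two-sided tests, adjusted by Benjamini-Hochberg over all genes. Self-tests on simulated data were run. Shares of V reads carry Wilson 95% intervals, which, like the floor of 3 reads, cover counting error only. Expected V genes at equal reads follow from the hypergeometric distribution, and nearest copies from edit distance between GENCODE M21 transcripts.

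Genes named were every constant, D and J gene, the 5 highest V genes of each locus, the leading V gene of each sample, the largest differences at an unadjusted p under 0.05, and those nearest the level limit. The genes and marker lists (plasma cell, B cell, germinal centre, V(D)J recombination, Fc receptor, T cell, macrophage, lymph node stroma, plasma cell niche, acinar and islet endocrine) were chosen with earlier results of these data known. Alternatives were another pseudocount, other level limits, no trend, other scalings, voom, a replicate block and leaving out each sample. Some genes of these lists are not reported here.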

Additional observations from a re-analysis of the deposited data

How the results depend on the processing

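Counts at an adjusted p under 0.05 over all genes were 0 under every alternative except voom on reads (2) and the fits that left out 1 sample each (0 to 1), and for immunoglobulin genes they were 0 throughout. At an unadjusted p under 0.05, all genes numbered 1500 higher and 328 lower with voom and 1404 higher and 377 lower when scaled by total reads on genes, an alternative chosen after seeing the data that moved the median log2 difference by 0.06. Leaving out 1 sample at a time gave 709 to 1251 higher and 402 to 1173 lower over all genes, with the highest count lower without Ctrl replicate 1 and the lowest without cKO replicate 3. The immunoglobulin genes then numbered 8 to 19 higher and 0 to 8 lower. The immunoglobulin genes lower in cKO numbered 1 with no filter on low values, 1 with voom and 5 with the replicate block. The replicate numbers did not pair the samples: deviations of same-numbered samples correlated at -0.17, -0.02 and -0.07, and the replicate block gave 16 immunoglobulin genes higher. With V genes of a mean of at least 1 FPKM only, the leading IGHV gene took 11.0% in Ctrl replicate 1, 27.5% in Ctrl replicate 2, 38.0% in Ctrl replicate 3 and 15.1% in cKO replicate 2, and the leading IGLV gene took 85.1% in Ctrl replicate 1 and 100% in cKO replicate 1. The other dominance values stayed within their intervals, but the leading IGHV gene of cKO replicate 3 became Ighv1-26 over FPKM and Ighv5-16 without pseudogenes. Summed heavy constant FPKM ran from 35.4 to 89.3 in Ctrl and 68.5 to 81.5 in cKO when 1 sample was left out. The cause of these changes was not tested. The 232 IGHV reads of Ctrl replicate 2 and the 17 to 76 IGLV reads a sample limit what shares can show.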

Other observations

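Receptors that bind or carry antibodies were highest in Ctrl replicate 1. Of 9 genes for antibody transport and Fc receptors, 8 were highest in Ctrl replicate 1, and none passed an unadjusted p of 0.05. The list summed to 14.4 to 92.4 FPKM in Ctrl and 24.6 to 35.5 FPKM in cKO. Fcamr, a receptor for IgA and IgM, was at 7.44 FPKM there and at 0.174 FPKM at most elsewhere. Pigr, which carries polymeric IgA and IgM across epithelia, was the exception, at 6.45, 7.41 and 4.27 FPKM in Ctrl and 5.57, 4.37 and 3.86 FPKM in cKO. Of 10 T cell genes, 9 were highest in Ctrl replicate 1, with sums of 1.91 to 23.4 FPKM in Ctrl and 4.17 to 6.61 FPKM in cKO. Of 11 macrophage and dendritic cell genes, 10 were, led by Lyz2 at 539 FPKM against 15.6 to 56.0 FPKM, with sums of 281 to 1370 FPKM in Ctrl and 327 to 524 FPKM in cKO. No gene of either list passed an unadjusted p of 0.05.

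Recombination genes were near 0: Rag2 and Vpreb2 were listed at 0 in all samples, Rag1 was above 0 in Ctrl replicate 1 alone (0.121 FPKM), and Vpreb3, the gene of this list of 7 that was tested, was at 2.07 FPKM in Ctrl replicate 1 and 0.265 FPKM at most elsewhere. Cxcl13, which draws B cells into follicles, was at 25.8 FPKM in Ctrl replicate 1 and 1.43 to 2.82 FPKM in the others. It made up most of the lymph node stroma list (1.75 to 27.8 FPKM over the samples), while Glycam1, a mark of high endothelium, was listed at 0 throughout. The plasma cell niche list, which shares Cxcl13, summed to 8.63 to 32.2 FPKM in Ctrl and 8.87 to 10.5 FPKM in cKO, and Ccl28, which attracts IgA plasma cells, was at 2.39, 4.41 and 5.24 FPKM in Ctrl and 5.48, 4.54 and 5.05 FPKM in cKO. Neither list had a gene at an unadjusted p under 0.05. Acinar genes summed to 8036 to 20550 FPKM in Ctrl and 9651 to 36100 FPKM in cKO. Of these 8 genes, 0 passed an unadjusted p of 0.05. Islet endocrine genes summed to 270830 to 306917 FPKM in Ctrl and 224630 to 248415 FPKM in cKO, with no overlap of the sums. Here too 0 of 8 passed, yet 2 were lower in cKO without overlap, where over all genes 6.03% were. They were Ins2 (168013 ± 12091 FPKM in Ctrl, 122054 ± 12099 in cKO) and Iapp (20552 ± 3427 and 14015 ± 489, SD, n = 3 each). The fit gave Ins2 a large SE, 2.87 for a log2 difference of -0.46. The 0 of 8 therefore cannot show that these genes were unchanged.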
